A study of Mus musculus with 13 samples.

Results

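The genes described here encode the proteins of the cytosolic ribosome. They were taken by symbol, as rows named Rps or Rpl followed by a number and at most a short suffix, together with Rpsa, Rplp0, Rplp1 and Rplp2. After rows without a count in any library were dropped, 86 of the 35976 gene symbols in the table remained. Of these, 77 are core genes, 31 of the small (40S) and 46 of the large (60S) subunit. A further 4 are paralogs listed as tissue-restricted (Rpl3l, Rpl10l, Rpl39l and Rps4l), 4 are paralogs with broad expression (Rpl22l1, Rpl7l1, Rpl36al and Rps27l), and 1, Rpl32l, fits neither class. The filter on low counts kept 84 of them, all 77 core genes included, and left out Rpl3l and Rpl32l.

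The ribosome joins a small subunit, which reads the mRNA, to a large subunit, which forms the peptide bond, and cells make the proteins of both in matched amounts. The mRNAs of these proteins are short and abundant, and most begin with a run of pyrimidines, the 5′ terminal oligopyrimidine (TOP) tract, through which mTOR signalling controls their translation. A few ribosomal proteins have a paralog that is used mainly in the testis, among them Rpl39l and Rpl10l, an intronless copy of the X-linked Rpl10 that is known to stand in for it during male meiosis.

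RNA was sequenced from primordial germ cells, which later give rise to sperm, of male mouse embryos at E14.5. The cells had been sorted by an Oct4-GFP reporter, which marks germ cells, and each library came from 5000 cells and was enriched for polyadenylated mRNA. There were 4 genotypes of Tet1, which encodes an oxidase of 5-methylcytosine in DNA, with 3 libraries each: wild type (WT), knockout (KO), HxD, known as a catalytically inactive allele, and V, known as an allele whose product makes 5-hydroxymethylcytosine but stops there. The labels give neither strain nor the design of the alleles, nor whether replicates were separate embryos, pools or repeats of 1 preparation, so a p-value here sets differences against a spread that may be technical in part. The series concerns the need for the catalytic activity of TET1, and for these genes the comparisons ask whether transcripts of the ribosome differ with it.

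Total counts ran from 13584484 in V 3 to 29641963 in HxD 1, of which 552884 to 1374349 fell on the core ribosomal protein genes. Tet1 itself had 608 ± 27.0 CPM (library-scaled read counts after TMM adjustment, SD, n = 3) in WT, 213 ± 11.8 in KO, 626 ± 101 in HxD and 480 ± 133 in V, and it was lower in every KO library than in any other. WT 3 stood apart, with 11529 genes detected and 104 genes at a count of 0 among those averaging at least 8 CPM, against 36 at most elsewhere. The germ cell markers were Ddx4, Dazl, Pou5f1, Dnd1, Nanos2, Nanos3, Kit, Dppa3, Piwil2, Mael and Tdrd1 (11 of 11 in the table). They summed to 3120 to 5112 CPM. WT had 4673 to 5112, KO 3386 to 3631, HxD 3120 to 4204 and V 3682 to 4097. Every mutant library thus lay below every WT library. Among markers of other cells, the 9 Sertoli genes reached 387 CPM in V 2 and 140 CPM or less in WT, the 6 endothelial genes 122 to 279 CPM, and the Leydig, interstitial, macrophage and erythroid lists at most 33.5 CPM, with Lhcgr, Lum, Emcn, Hba-a2 and Hba-x among the genes at 0 throughout. In bulk RNA, fewer cells of a type and less marker RNA per cell cannot be told apart. The latter includes an effect of the Tet1 genotype on the marker genes themselves, so the sums do not measure germ cell content alone. The part of these differences in the results was not tested.

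Annotated starts were searched for a pyrimidine run. Of the 77 core genes, 57 had an annotated start in RefSeq (GRCm38.p6), and in 13 of these (22.8%) a start was a C followed by 4 bases that are each C or T, read on the strand of the gene, against 3.01% of 27025 genes with a start. Anywhere within 20 bases of the start the same motif stood in 80.7% of the core genes and in 52.6% of all genes. The sequence CCGGAAG, the core of the motif bound by ETS factors and searched on both strands of the 300-base window around the start, was found in 42.1% of core genes and 9.93% of all. These are matches of letters in annotated windows and carry no test. The windows below run from 10 bases before the start to the first 20 bases of the transcript, with the pyrimidine run in capitals where it begins at the start, and they show genes named in the comparisons below, with Rps6, the ribosomal protein phosphorylated downstream of mTOR, and 2 testis paralogs beside their partners.
Rplp2 (chr7:141447641-141447670, plus strand): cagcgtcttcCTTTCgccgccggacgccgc
Rps21 (chr2:180257369-180257398, plus strand): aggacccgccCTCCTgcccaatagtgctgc
Rpl35 (chr2:39005112-39005141, minus strand): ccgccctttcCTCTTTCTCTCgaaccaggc
Rps6 (chr4:86857348-86857377, minus strand): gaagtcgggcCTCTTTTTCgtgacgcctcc
Rplp0 (chr5:115559457-115559486, plus strand): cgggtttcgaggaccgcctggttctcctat
Rps28 (chr17:33824543-33824572, minus strand): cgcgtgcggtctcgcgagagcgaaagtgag
Rpl39 (chrX:37085203-37085232, minus strand): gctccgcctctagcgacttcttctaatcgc
Rpl39l (chr16:10170218-10170247, plus strand): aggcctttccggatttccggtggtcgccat
Rpl10 (chrX:74270806-74270835, plus strand): tacagtggaagataggccgcctatataagg
Rpl10l (chr12:66284382-66284411, minus strand): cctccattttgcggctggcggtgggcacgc
Rplp2, Rps21, Rpl35 and Rps6 open directly on the run. The annotated starts of Rplp0, Rps28, Rpl39, Rpl39l, Rpl10 and Rpl10l do not, which says only that these letters are absent at the position that RefSeq gives.

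All 77 core genes were expressed in all 4 genotypes, at a mean over the 12 libraries of 111 CPM (Rpl39) to 2551 CPM (Rpl4), with a median of 434 CPM. Compared per kilobase of transcript, the highest levels included those of Rplp1 (3016 CPM per kb) and Rplp2 (1761 CPM per kb), acidic proteins of the ribosomal stalk that recruits translation factors, of Rpl8 (2232 CPM per kb), a protein close to the peptidyl transferase centre, and of the small-subunit gene Rps14 (1953 CPM per kb). The lowest were Rps20 (131 CPM per kb), Rpl35 (168 CPM per kb), Rpl24 (175 CPM per kb), Rpl39 (181 CPM per kb) and Rps16 (202 CPM per kb). The Rps20 value rests on a matched transcript of 3706 nt, the longest of the 77, whose median is 729 nt, so its level per length is uncertain. The steadiest genes within genotypes were Rpl4, Rps2 and Rpl7a, with coefficients of variation of 8.03%, 9.59% and 11.1%, and the least steady Rps27, Rpl27 and Rpl24, with 29.6%, 29.2% and 27.1%. The median over the core genes was 17.8%, against 38.1% over all 14702 genes tested and 15.1% over the 2483 tested genes at or above the lowest core level.

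Summed over the 77 core genes, ribosomal protein transcripts made up 3.86%, 3.80% and 4.17% of all counts in the WT libraries 1 to 3. The KO libraries held 3.77%, 4.74% and 4.32%. HxD had 4.64%, 3.87% and 4.60%, and V had 5.80%, 4.22% and 4.07%. V 1 was the highest library by a wide gap, and the ranges of all 4 genotypes overlapped. The means were 3.94 ± 0.203% in WT, 4.28 ± 0.484% in KO, 4.37 ± 0.436% in HxD and 4.70 ± 0.957% in V (SD, n = 3). Between the lowest and highest library the share differed 1.54-fold, and 1.26-fold with V 1 left out.

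Both subunits kept a nearly constant proportion. The ratio of large-subunit to small-subunit counts stayed between 1.43 and 1.54 in the 12 libraries, with genotype means of 1.46 ± 0.0362 in WT, 1.47 ± 0.0166 in KO, 1.49 ± 0.0527 in HxD and 1.48 ± 0.0523 in V. Summed over 39 translation factor genes, which load, move and release the ribosome, the level ran from 24328 to 26229 CPM, a 1.08-fold range with V 1 inside it at 25516 CPM, where the summed CPM of the core genes had a 1.53-fold range. The 77 genes of the mitochondrial ribosome, a separate machine of similar protein number, ran from 3959 to 5447 CPM with V 1 at the top, and their range without V 1 ended at 4858 CPM.

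**Figure D1:**
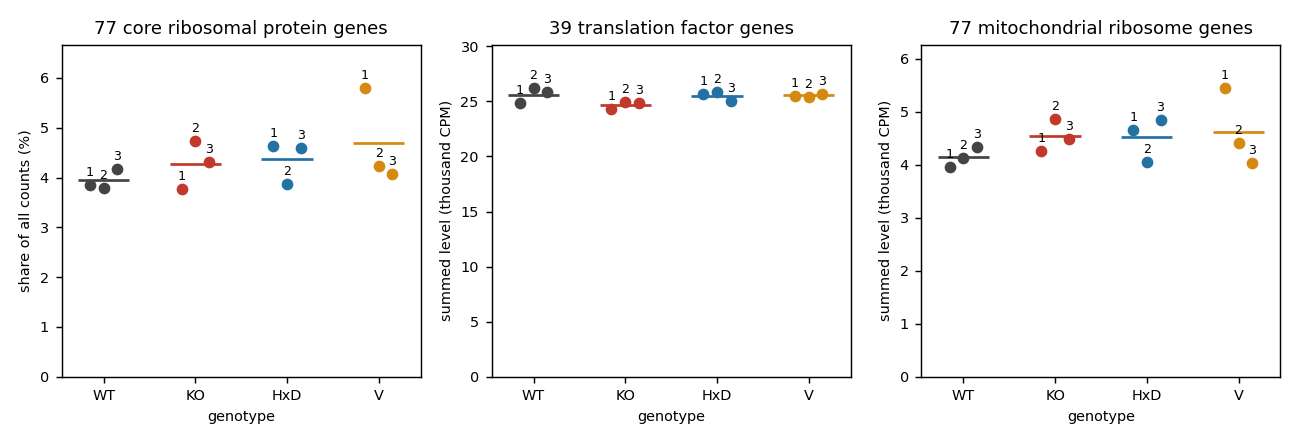
Summed transcript level in each library, by genotype (x axis), for the core ribosomal protein genes as a percentage of all counts, and for translation factor and mitochondrial ribosome genes as summed CPM divided by 1000 (y axes from 0). Points are libraries numbered by replicate and lines are means of 3; V 1 is the top point of the left panel at 5.80%, and lies inside the narrow band of the translation factors.

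V 1 was the highest of the 12 libraries for 59 of the 77 core genes and lay above the mean of the other 11 libraries for 77 of 77. The libraries that most often held the lowest value were KO 1 (20 genes), WT 1 (17) and HxD 2 (14), each from another genotype. The median core gene in V 1 stood 0.46 log2 units above its mean over the 12 libraries, against 0.12 in KO 2, the next highest library, and -0.20 in WT 1, the lowest. After removal of the genotype means, the levels of 2 core genes correlated over the 12 libraries with a median Pearson r of 0.58, and 94.6% of pairs were positive. Without V 1 the median was 0.37. Among the 2483 genes at or above the lowest core level the median was 0.03, with 52.8% of pairs positive. All these pairs share their libraries and depth, and the values are a description.

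**Figure D2:**
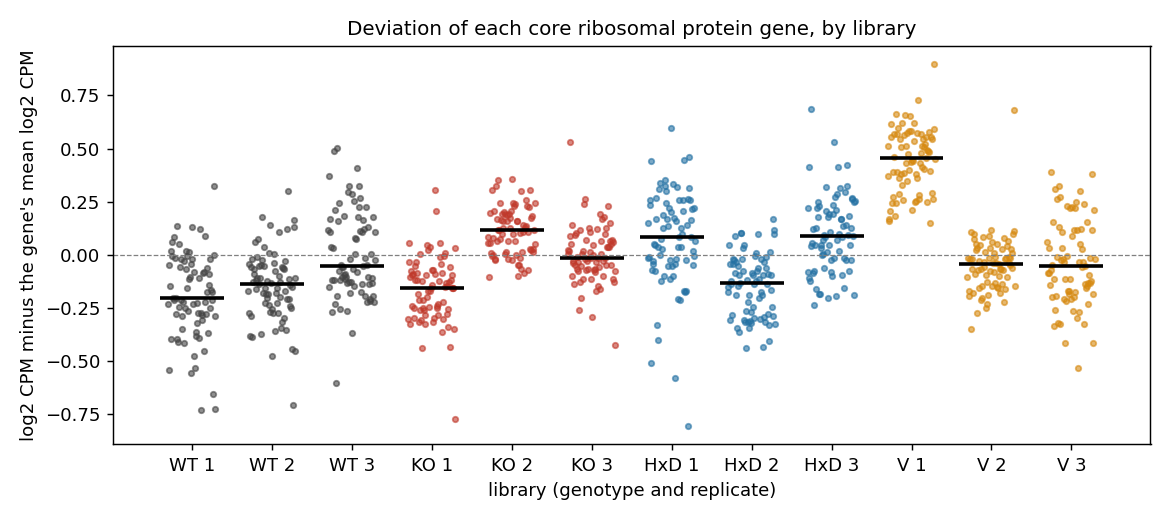
Deviation of each of the 77 core genes from its own mean log2 CPM (y axis) in each of the 12 libraries (x axis, genotype and replicate). Each point is a gene and each bar the median of the library; the whole cloud of V 1 lies above 0, with its median at 0.46, while the clouds of V 2 and V 3 straddle 0.

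Other short transcripts also stood high in V 1. Relative to the mean of V 2 and V 3, the core genes in V 1 stood at a median of 0.50 on the log2 scale, those under 800 nt at 0.58 and those of 800 nt or more at 0.42. All 1411 tested genes with a transcript under 1000 nt stood at 0.44, the 1351 of them that are not core genes at 0.42, and the 12100 longer ones at 0.00. Tested genes at or above the lowest core level (2483) stood at -0.10. Genes of the mitochondrial ribosome were at 0.40, those of RNA polymerase I (12) at 0.39, translation factors at 0.02 and ribosome biogenesis genes at 0.01. Transcripts encoded by the mitochondrial genome summed to 27054 CPM in V 1 and to 9532 to 18266 CPM in the other libraries. The part of transcript length and of mitochondrial RNA in the core level of V 1 was not tested.

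No ribosomal protein gene passed the test in any of the 6 comparisons between genotypes, by edgeR's quasi-likelihood test or by DESeq2, at a Benjamini-Hochberg adjusted p of 0.05 over all genes tested. DESeq2 called 0 members beside 1.48% of all genes for KO against WT, 1.41% for HxD against WT, 0.52% for V against WT, 0.536% for HxD against KO, 0.407% for V against KO and 0.59% for V against HxD. Of the 84 members tested, 0 were called for KO against WT, where edgeR called 0.218% of all genes, and 0 for HxD against WT, where it called 0.034%. The count was 0 for V against WT with 0% of all genes called, 0 for HxD against KO (0.0068%), 0 for V against KO (0.0204%) and 0 for V against HxD (0%). The standard error of a log2 fold change for a core gene had a median of 0.17, and a missed threshold does not show that a level was the same. The 3 comparisons against WT share the same WT libraries.

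In KO, the core genes differed from WT by a median log2 fold change of 0.10, with 57 of 77 above 0, where 50.3% of all tested genes were above 0 and their median was 0.00. Among the 2483 tested genes at or above the lowest core level the median was -0.04, with 1075 above 0. At an unadjusted p under 0.05, 137 of these 2483 were higher and 248 lower. The median of the 31 small-subunit genes was 0.10 and that of the 46 large-subunit genes 0.09. Tested genes with transcripts under 1000 nt had a median of 0.19 and longer ones -0.01. The short-transcript median was 0.02 without KO 2 and 0.11 without KO 3. The core median in the same fits was 0.03 (43 of 77 above 0) and 0.08 (59 of 77). The fits that leave out a library also test more genes, 15647 to 15940. At an unadjusted p under 0.05, 1 of 84 members was higher, beside 3.75% of all genes, and 0 were lower, beside 4.54%. For 8 members every KO library exceeded every WT library (8.13% of all genes did), and 0 had the opposite order (8.15%).

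The member with the smallest p in KO was Rps28, a small-subunit protein near the mRNA exit. It had 204, 217 and 155 CPM in the WT libraries and 229, 295 and 253 CPM in KO. Every KO value lay above every WT value, for a log2 fold change of 0.43 (SE 0.20, 95% interval 0.03 to 0.84, edgeR adjusted p = 0.567). Its locus (chromosome 17, 33819027 to 33824562, minus strand, GRCm38) overlaps Kank3 on the opposite strand, and the strand setting of the counts is unknown. Many other members also overlap an annotated gene on the opposite strand, among them Rpl35, Rpl5, Rpl30, Rpl31, Rps14, Rps2 and Rpl7l1. Some, such as Rpl24 and Rpl36al, overlap one on their own strand. Next came Rpl30 (log2 fold change 0.36), Rplp2 (0.29), Rpl37a (0.33), Rpl35 (0.33) and Rpl41 (0.35), with edgeR adjusted p from 0.617 to 0.673. Rpl30 and Rpl37a again had all KO libraries above all WT libraries, while Rplp2, Rpl35 and Rpl41 overlapped. Rpl35 had 0.16 without KO 3 and Rpl41 0.18 without KO 2, and Rpl30 had 0.23 at the lowest with 1 library left out.

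In HxD, the median core log2 fold change against WT was 0.11, with 63 of 77 genes above 0, where 47.6% of all genes were above 0 and their median was -0.02. Among the 2483 tested genes at or above the lowest core level the median was -0.02, with 1149 above 0. At an unadjusted p under 0.05, 127 of these 2483 were higher and 152 lower. Short transcripts had a median of 0.14 and longer ones -0.04. The short-transcript median was 0.00 without HxD 1, 0.02 without HxD 3 and 0.03 without WT 3. The core median in the same fits was 0.09 (52 of 77 above 0), 0.10 (57 of 77) and 0.19 (65 of 77). At an unadjusted p under 0.05, 5 of 84 members were higher (3.42% of all genes) and 1 was lower (4.82%). All HxD libraries exceeded all WT libraries for 8 members (5.26%), and lay below them for 2, the paralogs Rpl10l and Rpl7l1 (7.22%). Among core genes the smallest p belonged to Rplp0 (log2 fold change 0.49, SE 0.20, edgeR adjusted p = 0.558), followed by Rps29 (0.47), Rplp2 (0.34) and Rps21 (0.36), with edgeR adjusted p from 0.576 to 0.589. The paralog Rps27l had 0.43.

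In V, the median core log2 fold change against WT was 0.24, with 72 of 77 genes above 0, where 51% of all genes were above 0 and their median was 0.01. Among the 2483 tested genes at or above the lowest core level the median was -0.04, with 1054 above 0. At an unadjusted p under 0.05, 106 of these 2483 were higher and 212 lower. Tested genes under 1000 nt had a higher median than the core, 0.28, and longer ones -0.01. At an unadjusted p under 0.05, 10 of 84 members were higher (2.85% of all genes) and 0 were lower (3.2%). All V libraries exceeded all WT libraries for 12 members (5.75%), and lay below them for 1, Rpl7l1 (6.06%). With V 1 left out, the core median was 0.06 with 52 of 77 genes above 0, the median of short transcripts was also 0.06, and 3 members were higher at an unadjusted p under 0.05 (2.38% of all genes). All remaining V libraries then exceeded all WT libraries for 13 members (10.3% of all genes). With WT 3 and V 3 set aside instead, which leaves V 1 with more weight, the core median was 0.39 and 29 members were higher at that p (2.35% of all genes).

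**Figure D3:**
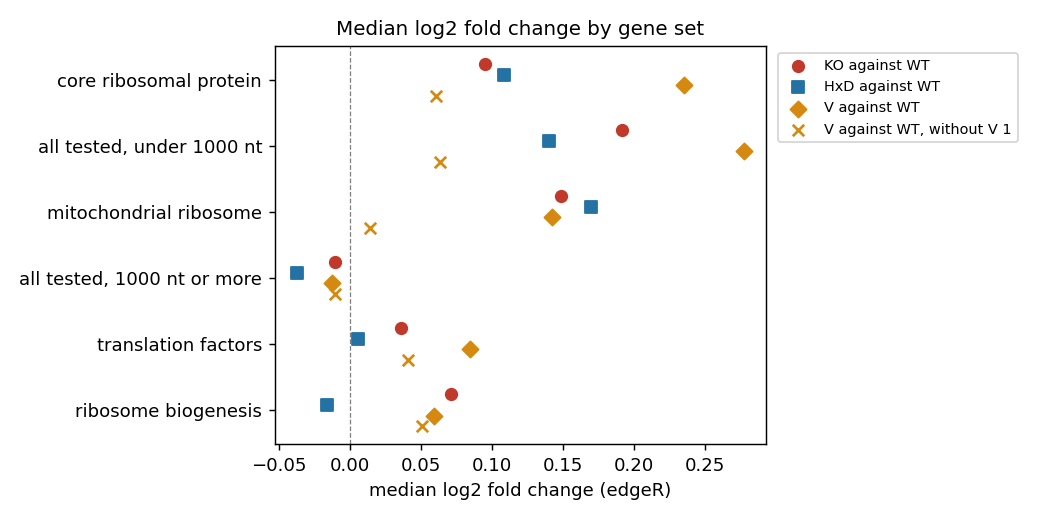
Median log2 fold change against WT (x axis) of the core ribosomal protein genes, other gene groups and all tested genes split by transcript length (y axis), for KO, HxD and V, and for V with V 1 left out. The core genes sit between 0.10 and 0.24, tested genes under 1000 nt between 0.14 and 0.28, and in V both come down to 0.06 without V 1.

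Rplp0, the scaffold of the ribosomal stalk that carries Rplp1 and Rplp2, gave the largest log2 fold change of a core gene in V. Its level was 535, 645 and 867 CPM in WT, 517, 1045 and 657 CPM in KO, 878, 955 and 1048 CPM in HxD, and 1642, 1413 and 1022 CPM in V. All V values lay above all WT values, all HxD values did too, and KO overlapped both WT and V. The log2 fold change of V against WT was 0.99 (SE 0.20, 95% interval 0.58 to 1.41), 1.99-fold, with an unadjusted p that ranked number 2 among the 14702 genes, but it missed the threshold by edgeR (adjusted p = 0.19). Against KO it was 0.88 (SE 0.20, edgeR adjusted p = 0.285) and against HxD 0.50 (SE 0.20, edgeR adjusted p = 0.861).

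The Rplp0 call turned on settings, while its direction did not. Over 21 alternatives the value of V against WT lay between 0.84 and 1.37, and edgeR or DESeq2 adjusted p-values between 4.71e-05 and 0.582, under the threshold in 9 of 21. These 9 were the fit without the low-count filter, the replicate block, and the fits that left out WT 3 or any of the KO or HxD libraries in turn. Without V 1 the value was 0.84 (edgeR adjusted p = 0.0536). Its partners on the stalk differed less in V: Rplp2 had a log2 fold change of 0.39 (edgeR adjusted p = 0.757) and Rplp1 one of 0.27 (edgeR adjusted p = 0.834).

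Beside Rplp0, the members with the smallest p in V were Rps27l, Rps29, Rpl30, Rps21 and Rplp2. Rps29, a small zinc-binding protein of the 40S head, had 163, 157 and 290 CPM in WT and 373, 245 and 334 CPM in V. WT 3 lay inside the V range, and the log2 fold change was 0.64 (SE 0.20, edgeR adjusted p = 0.579). Rps21 had 289, 275 and 309 CPM in WT and 518, 334 and 362 CPM in V. The groups did not overlap, V 1 stood far above the rest, and the log2 fold change was 0.47 (SE 0.17, edgeR adjusted p = 0.705). Without V 1 the values were 0.45 for Rps27l, 0.52 for Rps29, 0.35 for Rpl30, 0.27 for Rps21 and 0.32 for Rplp2, each with an edgeR adjusted p of 0.925 or more.

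**Figure D4:**
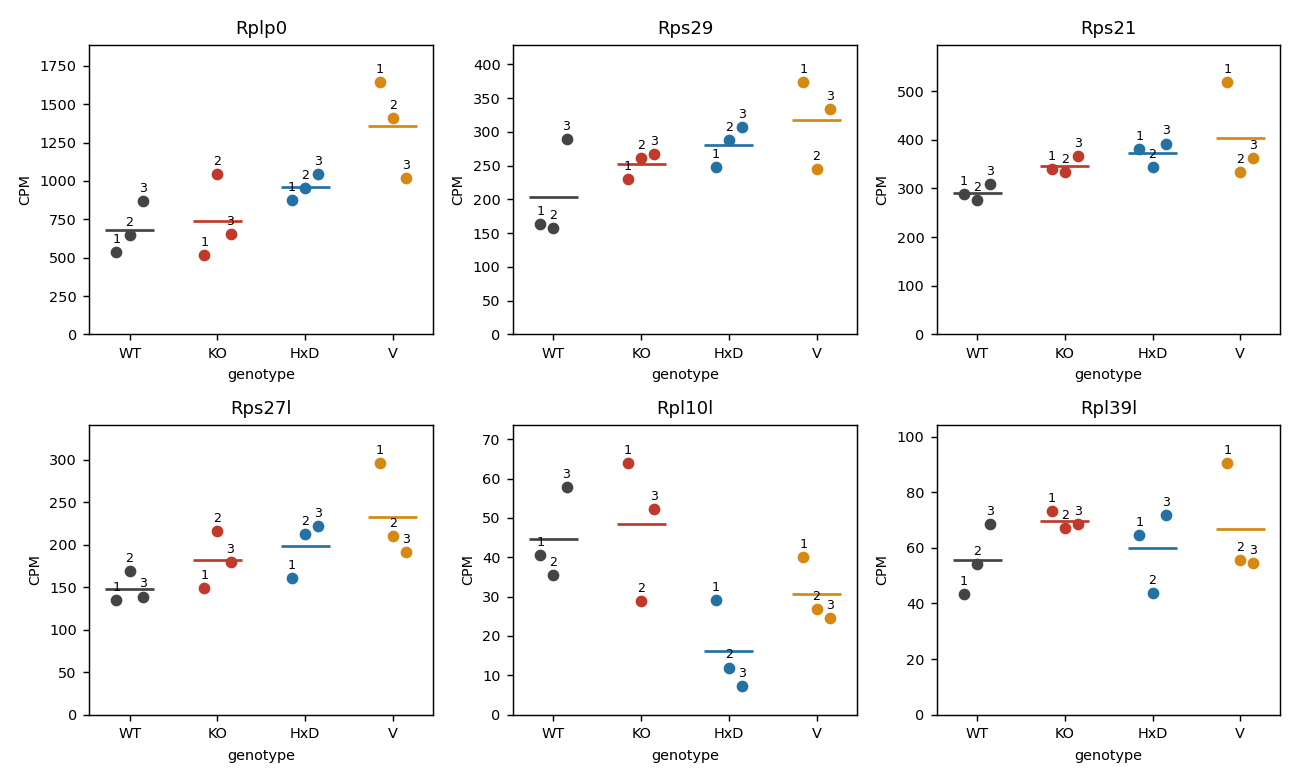
CPM in each library (y axes from 0) by genotype (x axis) for 4 genes with small p in V, Rplp0, Rps29, Rps21 and the paralog Rps27l, and for the testis paralogs Rpl10l and Rpl39l. Points are libraries numbered by replicate and lines are means of 3; all V points of Rplp0, Rps21 and Rps27l lie above all WT points, and HxD holds the lowest Rpl10l values, 11.98 and 7.37 CPM.

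The proteins used as sensors of ribosome assembly were not among the leading genes. Rpl5 and Rpl11, which bind MDM2 when ribosome assembly fails and so stabilise p53, had 461 ± 125 and 481 ± 5.13 CPM in WT. Their log2 fold changes were -0.19 and 0.18 in KO, -0.15 and 0.12 in HxD, and 0.00 and 0.27 in V. Rps19, the gene most often mutated in Diamond-Blackfan anaemia, had 219 ± 2.53 CPM in WT and log2 fold changes of 0.23, 0.17 and 0.20 in KO, HxD and V. The edgeR adjusted p-values of these 9 differences were 0.854 or more.

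Between the mutants the core medians were 0.04 for HxD against KO (48 of 77 genes above 0, beside 47.6% of all genes), 0.14 for V against KO (72 of 77, beside 50.6%) and 0.12 for V against HxD (67 of 77, beside 52.3%). Without V 1 the last pair turned to -0.03, with 28 genes above 0, and -0.07, with 20 above 0. At an unadjusted p under 0.05, the counts of members higher were 0 for HxD against KO (1.88% of all genes), 1 for V against KO (2.29%) and 2 for V against HxD (3.43%), and the counts lower were 1 (2.79%), 0 (1.81%) and 0 (1.63%). Members without overlap between libraries numbered 1 higher (3.69% of all genes) and 0 lower (5.64%) for HxD against KO, 1 (5.15%) and 0 (5.19%) for V against KO, and 1 (4.79%) and 0 (3.2%) for V against HxD; the member was Rpl27 in the first pair and Rps4l in both others. The gene higher in V against KO was Rplp0, those in V against HxD were Rplp0 and Rpl10l, and the gene lower in HxD against KO was Rpl10l. After these, the smallest p-values belonged to Rplp0 (log2 fold change 0.38), Rpl34 (-0.22), Rpl35 (-0.26), Rpl27 (0.30) and Rpl39 (0.25) in HxD against KO, to Rpl36a (0.34), Rps27l (0.36), Rpl17 (0.32), Rpl22 (0.26) and Rpl39 (0.36) in V against KO, and to Rpl30 (0.36), Rpl31 (0.38) and Rps26 (0.27) in V against HxD. Their edgeR adjusted p-values were 0.861 or more. Several of these values turned on 1 library. Without V 1, Rps26 had 0.04 and Rpl30 0.14 in V against HxD, and Rpl17 had 0.11, Rpl39 0.14 and Rps27l 0.15 in V against KO. Without HxD 1, Rpl31 had 0.13 in V against HxD and Rpl39 0.07 in HxD against KO. With each library left out in turn, HxD against KO ran from 0.17 to 0.71 for Rplp0, from -0.32 to -0.12 for Rpl34, from -0.44 to -0.09 for Rpl35 and from 0.15 to 0.39 for Rpl27.

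The paralogs differed widely in level from their core partners. Per kilobase, Rpl39l (chromosome 16, 10170226 to 10174911, plus strand) stood at 63.3% of Rpl39 (library range 44.7% to 88.9%). Rpl10l (chromosome 12, 66283379 to 66284401, minus strand) stood at 13.5% of Rpl10 (2.77% to 27%). Rps4l, listed as tissue-restricted, stood at 121% of Rps4x (100% to 167%), with 476 ± 36.7 CPM in WT and 568 ± 22.2 CPM in V. Its locus lies within Tmtc1 on the opposite strand, and reads that fit both Rps4l and Rps4x cannot be told apart in these counts, so its level is uncertain.

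Of the broadly expressed paralogs, Rps27l, known as a p53 target, stood at 74.1% of Rps27 per kilobase (54.6% to 107%). Rpl36al stood at 19.5% of Rpl36a (5.93% to 28.9%), Rpl22l1 at 18.8% of Rpl22 (10.4% to 29.4%) and Rpl7l1, a nucleolar protein of large-subunit assembly, at 13.6% of Rpl7 (10.1% to 18.7%). The rows left out of the tests were nearly empty. Rpl3l, a form used in skeletal and heart muscle, had 6 counts in WT 2 and 58 in KO 2 and none elsewhere. Rpl32l, whose locus lies within Map7 on the same strand, had 116 counts in KO 1 and 3 at most in every other library.

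**Figure D5:**
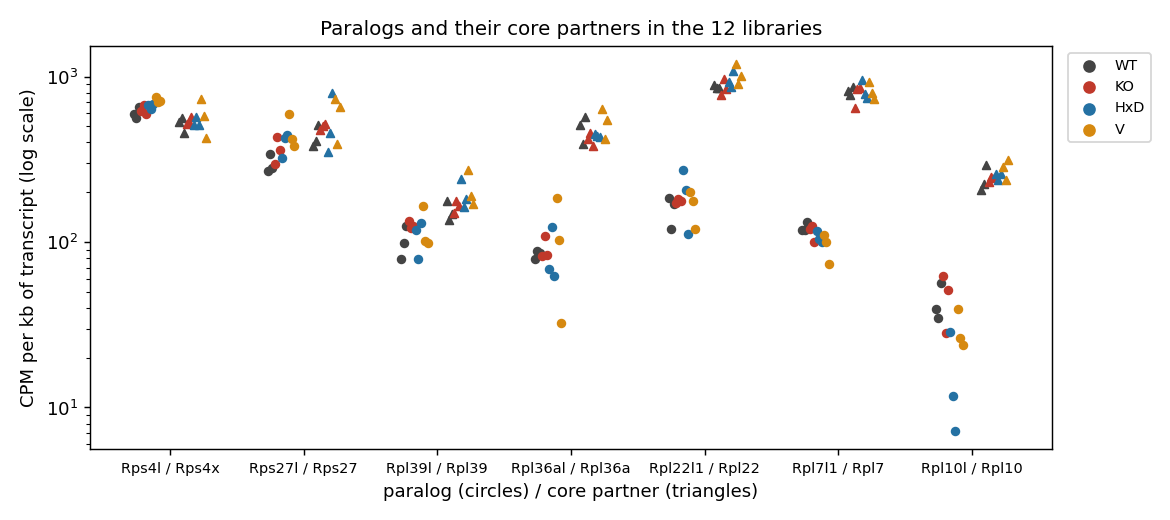
Level per kilobase of transcript (CPM per kb, log scale) in the 12 libraries for 7 paralogs (circles) and their core partners (triangles), coloured by genotype. Rps4l overlaps the range of Rps4x, Rpl39l and Rps27l come close to their partners, and Rpl10l lies lowest, with 2 HxD libraries below all the others.

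Rpl10l gave the largest difference of any paralog. It had 40.5, 35.5 and 57.7 CPM in WT (808, 780 and 1318 counts), 64.0, 29.0 and 52.2 CPM in KO, 29.1, 11.98 and 7.37 CPM in HxD (851, 280 and 114 counts), and 40.2, 27.0 and 24.5 CPM in V. All HxD values lay below all WT values, but HxD 1 overlapped KO and V. The log2 fold change of HxD against WT was -1.46 (SE 0.42, 95% interval -2.32 to -0.60), 2.75-fold lower, with an edgeR adjusted p of 0.318. Against KO it was -1.58 (SE 0.42, edgeR adjusted p = 0.644), and V against HxD had 0.92 (edgeR adjusted p = 0.861).

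The test of Rpl10l also turned on single libraries. Over 21 alternatives the value of HxD against WT ran from -2.20 to -1.11 and its adjusted p from 0.00968 to 0.662, under the threshold in 3: the fit without the low-count filter, the replicate block, and the fit without HxD 1, which gave -2.20. Against KO it was under the threshold in 1 of 21, the fit without HxD 1 (-2.32, edgeR adjusted p = 0.0115). Its partner Rpl10, a large-subunit protein that completes the functional 60S particle, had 192 ± 35.2 CPM in WT and 201 ± 10.6 CPM in HxD (log2 fold change 0.06, 95% interval -0.29 to 0.42).

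The other testis paralog showed no such pattern. Rpl39l had 43.6, 54.3 and 68.7 CPM in WT, 73.4, 67.3 and 68.5 CPM in KO, 64.7, 43.7 and 71.7 CPM in HxD, and 90.6, 55.6 and 54.5 CPM in V. The groups overlapped in every comparison with WT, with log2 fold changes of 0.33 for KO (95% interval -0.23 to 0.88), 0.11 for HxD (-0.44 to 0.67) and 0.27 for V (-0.29 to 0.82). Rpl39 itself had 0.10, 0.35 and 0.46 in the same comparisons.

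Rps27l had 135, 169 and 139 CPM in WT and 296, 210 and 191 CPM in V. The groups did not overlap, for a log2 fold change of 0.66 (SE 0.20, edgeR adjusted p = 0.551). Rpl7l1 went the other way, with 156, 155 and 174 CPM in WT, 153, 137 and 132 CPM in HxD and 145, 132 and 97.1 CPM in V. All HxD and all V values lay below all WT values, with log2 fold changes of -0.20 (edgeR adjusted p = 0.871) and -0.37 (edgeR adjusted p = 0.821). Rpl22l1 and Rpl36al overlapped between WT and each mutant, with log2 fold changes from 0.08 to 0.32 and from 0.00 to 0.33. Rps4l had 0.06 in KO, 0.14 in HxD and 0.25 in V.

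Some proteins of the ribosome carry symbols outside the naming rule. Rack1, a scaffold on the 40S head, had 1770 ± 133 CPM in WT, and Fau, which fuses a ribosomal protein to a ubiquitin-like protein, had 166 ± 44.8 CPM. In V their levels were 1958 ± 347 and 210 ± 40.5 CPM. Neither gene was called by edgeR or DESeq2, or had an unadjusted p under 0.05, against WT in KO, HxD or V.

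The rest of the translation machinery was read from lists of its own. Against WT, edgeR called 0 genes of the lists for translation factors, ribosome biogenesis, RNA polymerase I, mTOR and the mitochondrial ribosome. DESeq2 called 3 of them, Wdr75 (described with its list) and the elongation factor gene Eef2 in KO, and the mitochondrial ribosome gene Mrpl51 in HxD. Of all genes, edgeR called 0.218%, 0.034% and 0% in KO, HxD and V against WT, and DESeq2 called 1.48%, 1.41% and 0.52%. Mrpl51 and Eef2 were named after their values were seen. Mrpl51 had an edgeR log2 fold change of 0.83 (adjusted p = 0.417; DESeq2 adjusted p = 0.0402). Eef2 had an edgeR log2 fold change of -0.25 (adjusted p = 0.606; DESeq2 adjusted p = 0.0166). For the 39 translation factors the median log2 fold changes in KO, HxD and V were 0.04, 0.01 and 0.08. Genes higher at an unadjusted p under 0.05 numbered 3, 3 and 1, beside 3.75%, 3.42% and 2.85% of all genes. Those lower numbered 1, 0 and 1, beside 4.54%, 4.82% and 3.2%. The smallest p-values were those of Eif4h (0.47) and Eif3l (0.41) in KO, Eif6 (0.58) and Eif3l (0.43) in HxD, and Tpt1 (0.43) and Eif4g2 (-0.33) in V. Tpt1 encodes a TOP mRNA, and Eif6 keeps free 60S subunits from joining 40S.

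The ribosome biogenesis genes (49 of 50 tested) process rRNA and assemble the subunits in the nucleolus. Their medians in KO, HxD and V were 0.07, -0.02 and 0.06. Genes higher at an unadjusted p under 0.05 numbered 1, 2 and 4, beside 3.75%, 3.42% and 2.85% of all genes. Those lower numbered 2, 1 and 3, beside 4.54%, 4.82% and 3.2%. Rrp9, part of the U3 particle of early rRNA processing, had 105 ± 21.0 CPM in WT, 162 ± 40.4 CPM in HxD and 181 ± 19.7 CPM in V, with log2 fold changes of 0.63 (edgeR adjusted p = 0.436) and 0.79 (edgeR adjusted p = 0.494). Gar1 had 0.72 in V, Fbl 0.52 in HxD and Utp3 0.59 in KO. Wdr75 was lower in KO (323 ± 3.64 CPM in WT, 233 ± 6.07 CPM in KO, log2 fold change -0.47), with an edgeR adjusted p of 0.31 and a DESeq2 adjusted p of 0.00868. Its mean was also below WT in HxD (254 ± 28.9 CPM) and V (247 ± 21.4 CPM), without a call.

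For RNA polymerase I, which transcribes the rRNA precursor, 12 of 15 genes were tested, with medians of -0.03, 0.07 and 0.02. At an unadjusted p under 0.05 only V had any, 1 higher (2.85% of all genes) and 1 lower (3.2%). The 2 smallest p-values in V were those of Taf1d (0.50) and Polr1a (-0.38), with an edgeR adjusted p of 0.789 and 0.82. For mTOR and its control of TOP mRNAs, 15 of 16 genes were tested, with medians of -0.02, -0.01 and -0.05. Genes higher at that p numbered 0, 2 and 0 in KO, HxD and V, beside 3.75%, 3.42% and 2.85% of all genes. Those lower numbered 2, 1 and 1, beside 4.54%, 4.82% and 3.2%. Tsc1, an inhibitor of mTOR signalling, had 172 ± 44.0 CPM in WT, 111 ± 24.8 CPM in KO, 121 ± 19.6 CPM in HxD and 107 ± 9.71 CPM in V. Its log2 fold changes were -0.64, -0.51 and -0.69, with edgeR adjusted p-values of 0.302, 0.562 and 0.577. Mtor had -0.38 in KO, and Eif4ebp1, a translation repressor that mTOR inactivates, 0.55 in HxD.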

How the data were processed

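The deposited table holds raw read counts (whole numbers) for each gene symbol. Tools named in the submitters' processing notes are featureCounts 2.0.3, SAMtools 1.9, STAR 2.7.10b, Trim Galore 0.6.7 and FastQC. The builds GRCm39 and mm10 both appear there without a role, and the sources used here give no annotation or strand setting. Reads that fit several copies of a ribosomal protein gene, such as its pseudogenes, cannot be separated. The table named 12 of 13 labelled samples. A WT sample was not analysed here, and 1 column of no sample was not used.

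The counts were fitted with edgeR 4.0.16 (R 4.3.3): default expression filter (14702 genes), TMM scaling, quasi-likelihood F-test with genotype as the only term over 12 libraries, two-sided, Benjamini-Hochberg over all genes tested, threshold 0.05. Alternatives were DESeq2 1.42.0, other scalings and filters, fits of 2 genotypes, a replicate block and left-out libraries. The scripts were tested on simulated data. Gene lengths and coordinates are from GENCODE M21 (GRCm38), using the shortest basic transcript with the principal coding length. Lists carry no set test.

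Members and lists were chosen with earlier results of these data known. The rule for named genes takes Tet1, the paralogs and their partners, Rpl5, Rpl11, Rps19, Fau and Rack1, the 6 members of smallest p in each comparison, the 5 highest and lowest levels per kb, the 3 highest and lowest coefficients of variation, and 2 genes of smallest p from each other translation list. Rps6 and Eef2 were named outside it, and a few genes that the rule takes are not reported here.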

Additional observations from a re-analysis of the deposited data

How the results depend on the processing

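Which ribosomal protein genes were called depended on single choices. The count of called members moved from 0 to 1 without the low-count filter for HxD against WT (Rpl10l), V against WT (Rplp0) and V against KO (Rplp0), while all called genes went from 5, 0 and 3 of 14702 to 67, 32 and 21 of 19874. Correlations between the deviations of same-numbered libraries ran from -0.06 to 0.09 over 18 pairs, with 0 of 18 above 0.1. Of the 12 libraries, 5 correlated best with their own number. These values show no pairing by replicate number. Correlations over all tested genes cannot exclude a pairing, however, and the labels do not say. The fit with a replicate block gave 1 called member for HxD against WT, 1 for V against WT and 1 for V against KO, again Rpl10l, Rplp0 and Rplp0, with 45, 8 and 16 called among all 14702 genes. Leaving out each library in turn, the called members numbered 0 to 1 for HxD against WT, V against WT, HxD against KO and V against KO, and 0 in the other comparisons. Rplp0 was called against WT without WT 3, and without each KO and HxD library, and against KO without WT 1, WT 2 or KO 2. Those fits called 2 to 5 of all genes for V against WT, where the main fit called 0. For V against KO they called 9 to 16, where it called 3. Rpl10l was called without HxD 1 against WT and KO. All genes called in that fit were 47 and 14 of 15846, against 5 and 1 in the main fit. The cause was not tested.

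The median core log2 fold change of V against HxD was -0.072 without V replicate 1, within a range of -0.07 to 0.21 over the libraries left out. The corresponding ranges were 0.06 to 0.32 for V against WT, 0.08 to 0.20 for HxD against WT, 0.03 to 0.16 for KO against WT, -0.03 to 0.24 for V against KO and -0.03 to 0.11 for HxD against KO. RLE, upper-quartile and ribosomal-protein-free scaling kept all 6 medians above 0. Scaling to the summed core counts, added after seeing the data, sets the core near 0 by construction and gave 0.0021 for V against WT, with Rplp0 still at 0.77. A tally of alternatives covered the members of smallest p in each comparison. It also took the genes of smallest p against WT from the translation factor, ribosome biogenesis, RNA polymerase I and mTOR lists. Of its values under an alternative, 1241 kept their direction and side of the threshold, 19 passed it newly and 0 reversed. Other named genes were outside the tally, among them Rpl5 and the DESeq2 calls Eef2 and Mrpl51. The genes in the tally were picked by small p in the same data, and the alternatives share most libraries, so few reversals could occur. With 3 libraries a genotype and a common biological coefficient of variation of 0.932 (0.167 for the median core gene), small shifts of single genes are beyond reach.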
